A study of Mus musculus with 15 samples.

Results

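The nuclear genome encodes most subunits of the oxidative phosphorylation system, and 93 of 20661 autosomal protein-coding genes of the mouse were taken as these genes. They were chosen by symbol alone from the RefSeq genes of GRCm38, as those that begin with Nduf, Uqcr, Cox4, Cox5, Cox6, Cox7, Cox8 or Atp5, together with Sdha, Sdhb, Sdhc and Sdhd. The families also hold Ndufb11, Ndufa1 and Cox7b on chromosome X, which lie outside the rule. By role, 37 of the 93 genes encode subunits of complex I, 8 encode assembly factors of complex I, 4 encode complex II, 8 encode complex III, 19 encode complex IV and 17 encode complex V.

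All libraries came from EL4, a line of T lymphocyte lymphoma cells from mice of the strain label C57BL/6N, grown in culture medium with serum and without treatment. ChIP-seq (sequencing of DNA bound to a modified histone) for H3K4me3, H3K9ac, H3K27ac, H3K36me2 and H3K27me3 and ATAC-seq (sequencing of DNA open to a transposase) gave 2 lists of called intervals each, which makes 12 lists. There was a single line, in a single condition, and the study describes replicates as technical, so there was no group contrast to test and the spread covers repeated libraries only. Input DNA and RNA-seq were left out of what follows.

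Complexes I to IV of the inner mitochondrial membrane pass electrons from NADH and succinate to oxygen. Complexes I, III and IV also pump protons, and complex V uses the proton gradient to make ATP. Some subunits of complex IV exist as isoforms with a widely used form and a form of heart, skeletal muscle, lung or testis. Trimethylated H3K4 and acetylated H3K9 and H3K27 are known from the starts of active genes, H3K36me2 from broad domains over genes and between them, and H3K27me3 from domains silenced by Polycomb.

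The 12 lists held between 17519 and 46015 intervals, with medians of 418 bp to 1359 bp for ATAC-seq and the 3 marks of gene starts and of 4199 bp to 5799 bp for the broad marks. They give positions only, so the read depth behind an interval is unknown, and a gene without an interval may still carry some of the mark. As a check of the cell type, all 7 T lineage genes examined (Cd3e, Cd3d, Cd3g, Lck, Thy1, Cd2 and Ptprc) had H3K4me3 in both replicates. Of all autosomal protein-coding genes, 52.6% had it. None of 7 genes of heart and skeletal muscle had H3K4me3, though Tnni3 among them had H3K27ac in both replicates. H3K4me3 was at 1 of 6 genes of male germ cells and 2 of 3 genes of lung epithelium. The check thus did not set the lung genes apart.

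The sequences at the starts of 3 pairs of complex IV isoforms are shown first, because the widely used and the tissue form of each pair differed in every mark of active starts. Each sequence holds 300 bases around the start, from 250 bases before to 50 bases after it, on GRCm38.p6. Letters run 5′ to 3′ on the strand of the gene, with each CpG dinucleotide in capitals. The sequences are those of Cox6b1 (chr7:30626065-30626364, minus strand), Cox6b2 (chr7:4753045-4753344, minus strand), Cox7a2 (chr9:79759804-79760103, minus strand), Cox7a1 (chr7:30183921-30184220, plus strand), Cox8a (chr19:7217567-7217866, minus strand) and Cox8b (chr7:140900397-140900696, minus strand).
Cox6b1: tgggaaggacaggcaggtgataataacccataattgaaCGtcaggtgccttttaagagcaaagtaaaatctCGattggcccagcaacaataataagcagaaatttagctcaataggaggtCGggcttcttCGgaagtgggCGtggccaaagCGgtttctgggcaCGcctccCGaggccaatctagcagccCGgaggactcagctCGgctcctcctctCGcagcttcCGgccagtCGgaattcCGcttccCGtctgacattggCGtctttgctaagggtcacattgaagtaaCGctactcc
Cox6b2: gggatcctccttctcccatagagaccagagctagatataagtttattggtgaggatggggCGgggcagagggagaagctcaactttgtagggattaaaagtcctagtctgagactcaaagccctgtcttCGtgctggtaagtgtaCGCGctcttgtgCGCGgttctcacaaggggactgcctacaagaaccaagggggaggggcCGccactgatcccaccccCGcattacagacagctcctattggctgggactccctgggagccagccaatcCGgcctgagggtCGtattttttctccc
Cox7a2: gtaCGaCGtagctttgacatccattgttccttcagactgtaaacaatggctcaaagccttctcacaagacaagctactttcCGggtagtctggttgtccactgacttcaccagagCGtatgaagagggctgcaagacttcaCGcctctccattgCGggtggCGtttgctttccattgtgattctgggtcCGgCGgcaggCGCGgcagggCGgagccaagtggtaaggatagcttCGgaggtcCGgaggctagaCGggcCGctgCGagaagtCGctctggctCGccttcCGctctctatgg
Cox7a1: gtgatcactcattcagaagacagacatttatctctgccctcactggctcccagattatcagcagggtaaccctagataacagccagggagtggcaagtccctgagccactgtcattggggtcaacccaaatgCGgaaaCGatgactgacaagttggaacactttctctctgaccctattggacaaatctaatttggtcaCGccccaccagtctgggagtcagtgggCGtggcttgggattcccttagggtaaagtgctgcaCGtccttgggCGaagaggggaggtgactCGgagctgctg
Cox8a: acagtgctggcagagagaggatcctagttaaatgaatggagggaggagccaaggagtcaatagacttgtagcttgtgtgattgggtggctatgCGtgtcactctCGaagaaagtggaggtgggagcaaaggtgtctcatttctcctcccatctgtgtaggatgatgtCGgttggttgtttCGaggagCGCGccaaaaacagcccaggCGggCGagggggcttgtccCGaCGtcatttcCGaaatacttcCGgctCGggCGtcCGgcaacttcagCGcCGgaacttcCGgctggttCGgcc
Cox8b: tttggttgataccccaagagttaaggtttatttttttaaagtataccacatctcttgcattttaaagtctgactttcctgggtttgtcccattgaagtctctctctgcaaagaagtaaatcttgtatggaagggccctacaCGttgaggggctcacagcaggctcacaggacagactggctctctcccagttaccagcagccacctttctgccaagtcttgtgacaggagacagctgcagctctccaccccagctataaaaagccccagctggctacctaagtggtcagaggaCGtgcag

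The sequences of the widely used forms held 17 CpG (Cox6b1), 20 CpG (Cox7a2) and 19 CpG (Cox8a). Those of the tissue forms held 10 CpG (Cox6b2), 7 CpG (Cox7a1) and 2 CpG (Cox8b). The 3 genes for subunit c of complex V form a second set. Their products form the rotor ring of ATP synthase, and Atp5g2 had no H3K4me3 interval while Atp5g1 and Atp5g3 did. The sequences are those of Atp5g1 (chr11:96075582-96075881, minus strand), Atp5g2 (chr15:102670998-102671297, minus strand) and Atp5g3 (chr2:73911277-73911576, minus strand).
Atp5g1: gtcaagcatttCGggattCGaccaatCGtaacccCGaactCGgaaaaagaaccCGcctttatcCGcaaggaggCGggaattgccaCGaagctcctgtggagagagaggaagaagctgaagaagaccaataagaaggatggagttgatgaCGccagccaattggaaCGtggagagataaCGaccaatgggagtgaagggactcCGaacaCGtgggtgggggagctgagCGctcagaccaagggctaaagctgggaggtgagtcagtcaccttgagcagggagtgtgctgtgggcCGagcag
Atp5g2: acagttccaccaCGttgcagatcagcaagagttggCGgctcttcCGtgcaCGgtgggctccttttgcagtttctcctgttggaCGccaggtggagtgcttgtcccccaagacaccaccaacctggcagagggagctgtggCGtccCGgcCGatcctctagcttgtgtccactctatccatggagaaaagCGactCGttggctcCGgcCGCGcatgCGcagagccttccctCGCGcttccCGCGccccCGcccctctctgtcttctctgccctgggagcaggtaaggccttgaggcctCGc
Atp5g3: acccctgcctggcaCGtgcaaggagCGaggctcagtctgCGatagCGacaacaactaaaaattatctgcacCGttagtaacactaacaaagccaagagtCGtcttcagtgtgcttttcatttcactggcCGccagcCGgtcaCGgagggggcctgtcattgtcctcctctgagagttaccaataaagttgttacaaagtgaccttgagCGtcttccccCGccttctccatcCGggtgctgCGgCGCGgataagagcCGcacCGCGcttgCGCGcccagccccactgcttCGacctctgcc

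Atp5g2 held 20 CpG, between Atp5g1 with 16 and Atp5g3 with 21. The 3 starts thus differed in called marks without a like difference in CpG number, unlike the isoform pairs of complex IV.

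A gene was counted for a list when at least 1 bp of an interval lay in the gene span or within 2 kb on either side. H3K4me3 touched 80 of the 93 genes in both replicates, which is 86.0% of them, against 52.6% of all autosomal protein-coding genes. H3K9ac also touched 80 in both replicates against 51.4% of all genes, and H3K27ac touched 80 against 52.4% of all genes. The same 80 genes carried the 3 marks.

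ATAC-seq intervals touched 74 genes in either single replicate and 71 in both, or 76.3%, against 48.0% of all genes. H3K36me2 touched 69 genes in either single replicate and 64 in both, or 68.8%, against 48.0% of all genes. H3K27me3 ran the other way, with 5 genes in replicate 1, 6 in replicate 2 and 5 in both, or 5.38%, against 18.7% of all genes. With no flank the share fell to 2.15% against 16.8%, and with at least 200 bp covered to 3.23% against 18.4%. Calls agreed between replicates for all 93 genes in H3K4me3, differed for 1 gene each in H3K9ac, H3K27ac and H3K27me3, for 6 genes in ATAC-seq and for 10 genes in H3K36me2.

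All 4 sets of active starts (H3K4me3, H3K9ac, H3K27ac and ATAC-seq) were present in both replicates at 71 genes, or 76.3%, against 46.2% of all genes. With intervals of at least 500 bp only, the count was 41, against 27.6% of all genes, since ATAC-seq then touched 44.1% of the oxidative phosphorylation genes and 28.0% of all genes. No interval of any of the 4 in either replicate was found at 11 genes, or 11.8%, against 43.2% of all genes. The oxidative phosphorylation genes are shorter than most, with a median span of 7394 bp (471 to 106064 bp) against 17491 bp, and a longer window has more room for an interval.

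Shares were therefore also read within length classes. Of genes up to 5 kb, 75.9% of 29 oxidative phosphorylation genes had H3K4me3 against 26.7% of all genes. From 5 to 20 kb the shares were 90.0% of 50 genes against 54.6%, and above 20 kb they were 92.9% of 14 genes against 63.7%. The share was above that of all genes in each class. For H3K36me2, the shares in the same order were 55.2% against 22.3%, 72.0% against 50.0% and 85.7% against 59.0%. For H3K27me3 they were 6.9% against 14.8%, 2.0% against 12.4% and 14.3% against 24.9%. These H3K27me3 shares rest on 2, 1 and 2 of the oxidative phosphorylation genes.

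The genes of cytosolic and mitochondrial ribosomal proteins, which are also widely used, give a closer comparison than all genes. H3K4me3 in both replicates was at 85.0% of 80 cytosolic and 94.9% of 78 mitochondrial ribosomal protein genes, ATAC-seq at 83.8% and 84.6%, and H3K27me3 at 1.25% and 2.56%. H3K36me2 separated them, with 46.2% of the cytosolic and 80.8% of the mitochondrial ribosomal protein genes, and the oxidative phosphorylation genes lay between them. In single replicates the cytosolic genes stood at 56.2% and 65.0%. Median spans were 3179 bp for the cytosolic, 7690.5 bp for the mitochondrial ribosomal protein and 7394 bp for the oxidative phosphorylation genes. The share with H3K36me2 rises with length over all genes, and these groups were not matched for length. No test was run on these differences.

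**Figure D1:**
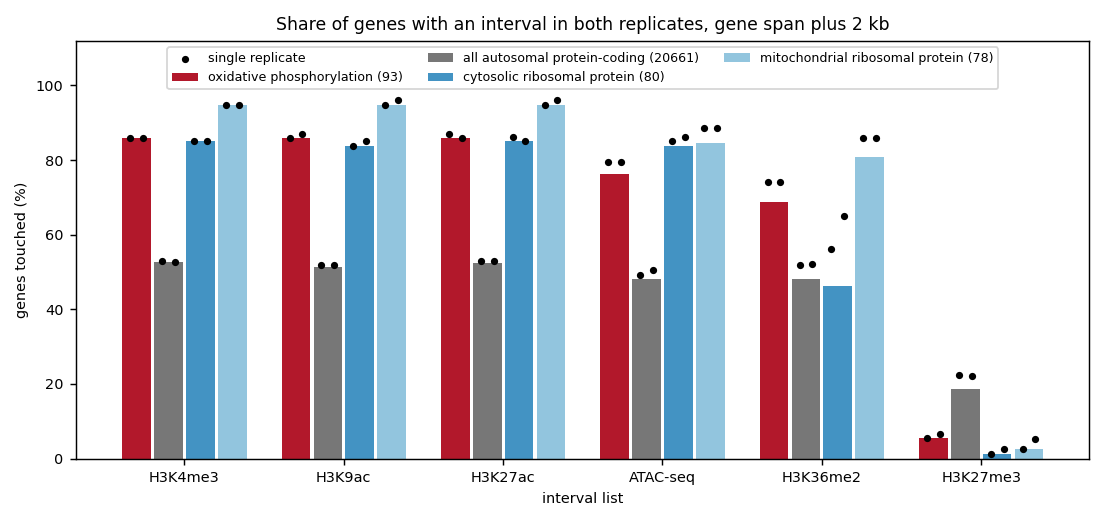
Share of genes (percent, y axis) touched by an interval in both replicates for each of the 6 kinds of list (x axis), as bars for the oxidative phosphorylation genes, all autosomal protein-coding genes and the 2 groups of ribosomal protein genes, with the share in each single replicate as a point. The bars of the oxidative phosphorylation genes stand at 86.0% for H3K4me3, H3K9ac and H3K27ac, at 76.3% for ATAC-seq, at 68.8% for H3K36me2 and at 5.38% for H3K27me3.

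Complex I, the NADH dehydrogenase, takes electrons from NADH to ubiquinone. Of its 37 subunit genes, 32 had H3K4me3, 29 had all 4 active sets, 29 had H3K36me2 and 3 had H3K27me3, each in both replicates. The core subunits carry the flavin, the iron-sulfur clusters and the ubiquinone site. Ndufv1, the subunit with the flavin, had 1679 and 1616 bp of H3K4me3 in replicates 1 and 2. Ndufv2, an iron-sulfur subunit, had 3883 and 4022 bp, in a window that also holds part of Ankrd12. The H3K4me3 interval at the start of Ndufv2 was 2170 bp wide, as the mean of the replicates.

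Ndufs1, the largest subunit, had 3053 and 3091 bp of H3K4me3, and Ndufs3, a subunit of the arm in the matrix, had 2051 and 2129 bp. Ndufs7, an iron-sulfur subunit near the ubiquinone site, had no bp of any of the 4 active sets. Ndufs8, another iron-sulfur subunit, had 669 and 651 bp, the fewest of the 80 genes with H3K4me3. Those intervals lay in the part of the window next to Tcirg1 and not at the start of Ndufs8, which makes it the single gene of 65 with a listed start whose H3K4me3 lay elsewhere in the window.

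All 8 assembly factors of complex I (Ndufaf1 to Ndufaf8), which help to build the complex without staying in it, had H3K4me3, H3K9ac and H3K27ac in both replicates. H3K36me2 was at 3 of these 8 genes in both replicates, Ndufaf2, Ndufaf5 and Ndufaf8. None of them had H3K27me3.

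Complex II, succinate dehydrogenase, also belongs to the tricarboxylic acid cycle, and its 4 genes all had the 4 active sets and H3K36me2 in both replicates. Sdha, the flavoprotein, had 2142 and 2141 bp of H3K4me3, and Sdhb, the iron-sulfur protein, had 2042 and 2088 bp. The membrane anchors Sdhc and Sdhd had 1154 and 1195 bp and 2848 and 2771 bp. Sdhb had the largest share of its span in H3K36me2 among the 4, with 100% and 92.6%.

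Complex III, the cytochrome bc1 complex, passes electrons to cytochrome c. Its 8 genes all had H3K4me3 in both replicates and 6 had ATAC-seq in both. The Rieske iron-sulfur protein Uqcrfs1 had 1580 and 1600 bp of H3K4me3 but an ATAC-seq interval in replicate 1 only, of 240 bp. It was also the only gene of complex III with no H3K36me2 in either replicate. The core proteins Uqcrc1 and Uqcrc2 had 1445 and 1366 bp and 2321 and 2339 bp of H3K4me3.

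Complex IV, cytochrome c oxidase, had the lowest share, with H3K4me3 at 13 of 19 genes and all 4 active sets at 11. The 6 genes without H3K4me3 were all tissue isoforms, described below. Cox4i1, Cox5a and Cox5b, nuclear subunits around the catalytic core, had 2814 and 2827 bp, 2703 and 2610 bp and 1625 and 1666 bp of H3K4me3. H3K36me2 was in both replicates at 8 of the 19 genes of complex IV, the lowest share of the 5 complexes.

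Complex V, ATP synthase, had H3K4me3 at 15 of 17 genes, all 4 active sets at 14 and H3K27me3 at none. Atp5b, the catalytic beta subunit, had 4161 and 4293 bp of H3K4me3, the most of all 93 genes, in a window that also holds part of Baz2a. Atp5a1, the alpha subunit, and Atp5c1, the gamma subunit, had 2790 and 2780 bp and 2509 and 2325 bp. Atp5o, which ties the head of the enzyme to its stalk, had 1670 and 1622 bp. For comparison, the median over the 80 genes with H3K4me3 was 2008 bp in replicate 1 and 2023 bp in replicate 2.

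**Figure D2:**
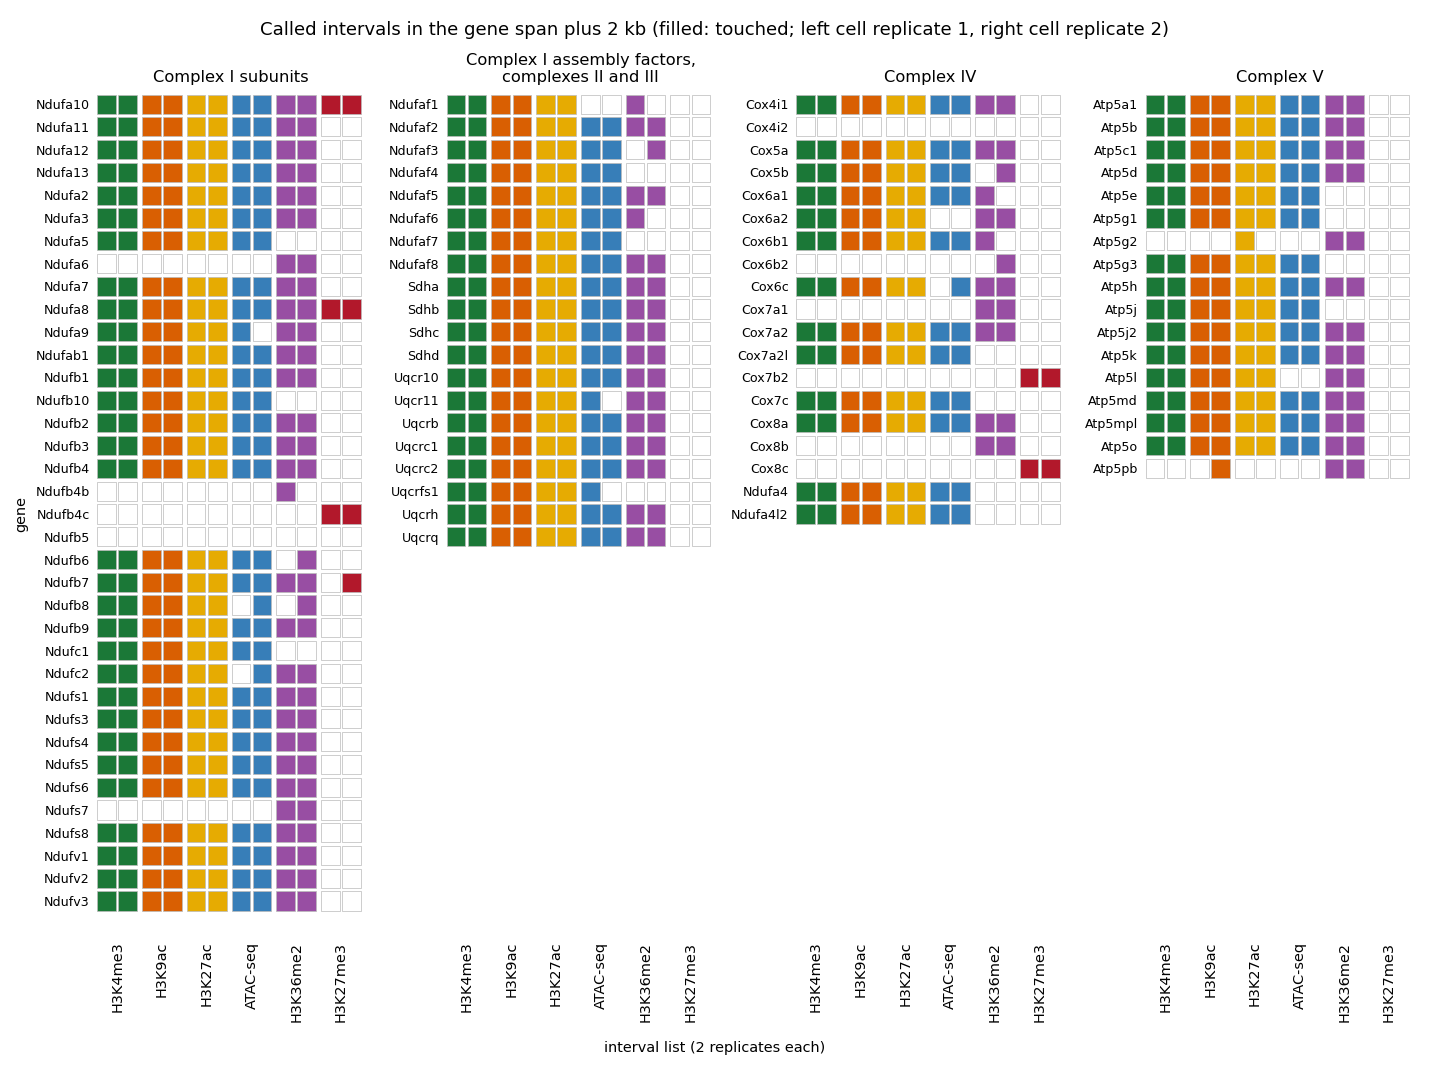
Grid of 92 of the genes (rows, by complex) and the 12 interval lists (columns, replicate 1 on the left and replicate 2 on the right of each pair), with a filled cell where an interval touched the gene span plus 2 kb. The columns of the 3 histone marks of active starts are filled at 79 of these genes in both replicates, and the 11 rows without any of the 4 active sets include 6 tissue isoforms of complex IV.

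Of 8 tissue isoforms on a list drawn from textbook knowledge, 6 had no interval of H3K4me3, H3K9ac, H3K27ac or ATAC-seq in either replicate. They were Cox4i2, the lung form, Cox7a1 and Cox8b, forms of heart and skeletal muscle, and Cox6b2, Cox7b2 and Cox8c, forms of testis. Their partners Cox4i1, Cox6b1, Cox7a2 and Cox8a on the autosomes and Cox7b on chromosome X had all 4 active sets in both replicates. So did Cox6a1 and Ndufa4, the partners of the other tissue isoforms.

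The 6 isoforms without active sets did not share a state in the broad marks. Cox8b had H3K36me2 over 100% of its span in both replicates, with 5505 and 4658 bp in its window. Cox7a1 had 1029 and 4030 bp of H3K36me2 in its window, but its span was covered by 0.0% in replicate 1 and 100% in replicate 2. Cox6b2 had none in replicate 1 and 3608 bp in replicate 2. H3K36me2 in the window thus held in both replicates at Cox7a1 and Cox8b and in 1 at Cox6b2.

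Cox7b2 and Cox8c carried H3K27me3 and no H3K36me2. Cox7b2 had 31394 and 16596 bp of H3K27me3 in a gene of 105383 bp, with the nearest H3K4me3 interval at 618908 and 618953 bp. Cox8c had 134 and 1734 bp in its flank, at 1866 and 266 bp from the gene, and none in its span. Cox4i2 had no interval of any of the 6 kinds, and H3K36me2 was nearest, at 15361 and 13761 bp.

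The other genes on the isoform list, Cox6a2 and Ndufa4l2, did have marks of active starts in their windows, but neither has a listed start. Cox6a2, the heart and muscle form of subunit VIa, had 1962 and 2007 bp of H3K4me3, 1620 and 1862 bp of H3K9ac and 1721 and 1743 bp of H3K27ac, but no ATAC-seq interval. Its gene is 932 bp long and its window overlaps Itgad, which encodes an integrin of leukocytes, so the intervals cannot be assigned to Cox6a2 from positions alone.

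Ndufa4l2, a form known for its rise in low oxygen, had 3754 and 3569 bp of H3K4me3 and 1669 and 1781 bp of ATAC-seq in its window. This placed it among the 3 genes with the most H3K4me3 in the window, with Ndufv2 and Atp5b. Its window also overlaps Stac3 and Shmt2, so these intervals cannot be assigned to Ndufa4l2 from positions alone either. Ndufa4l2 had neither H3K36me2 nor H3K27me3.

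**Figure D3:**
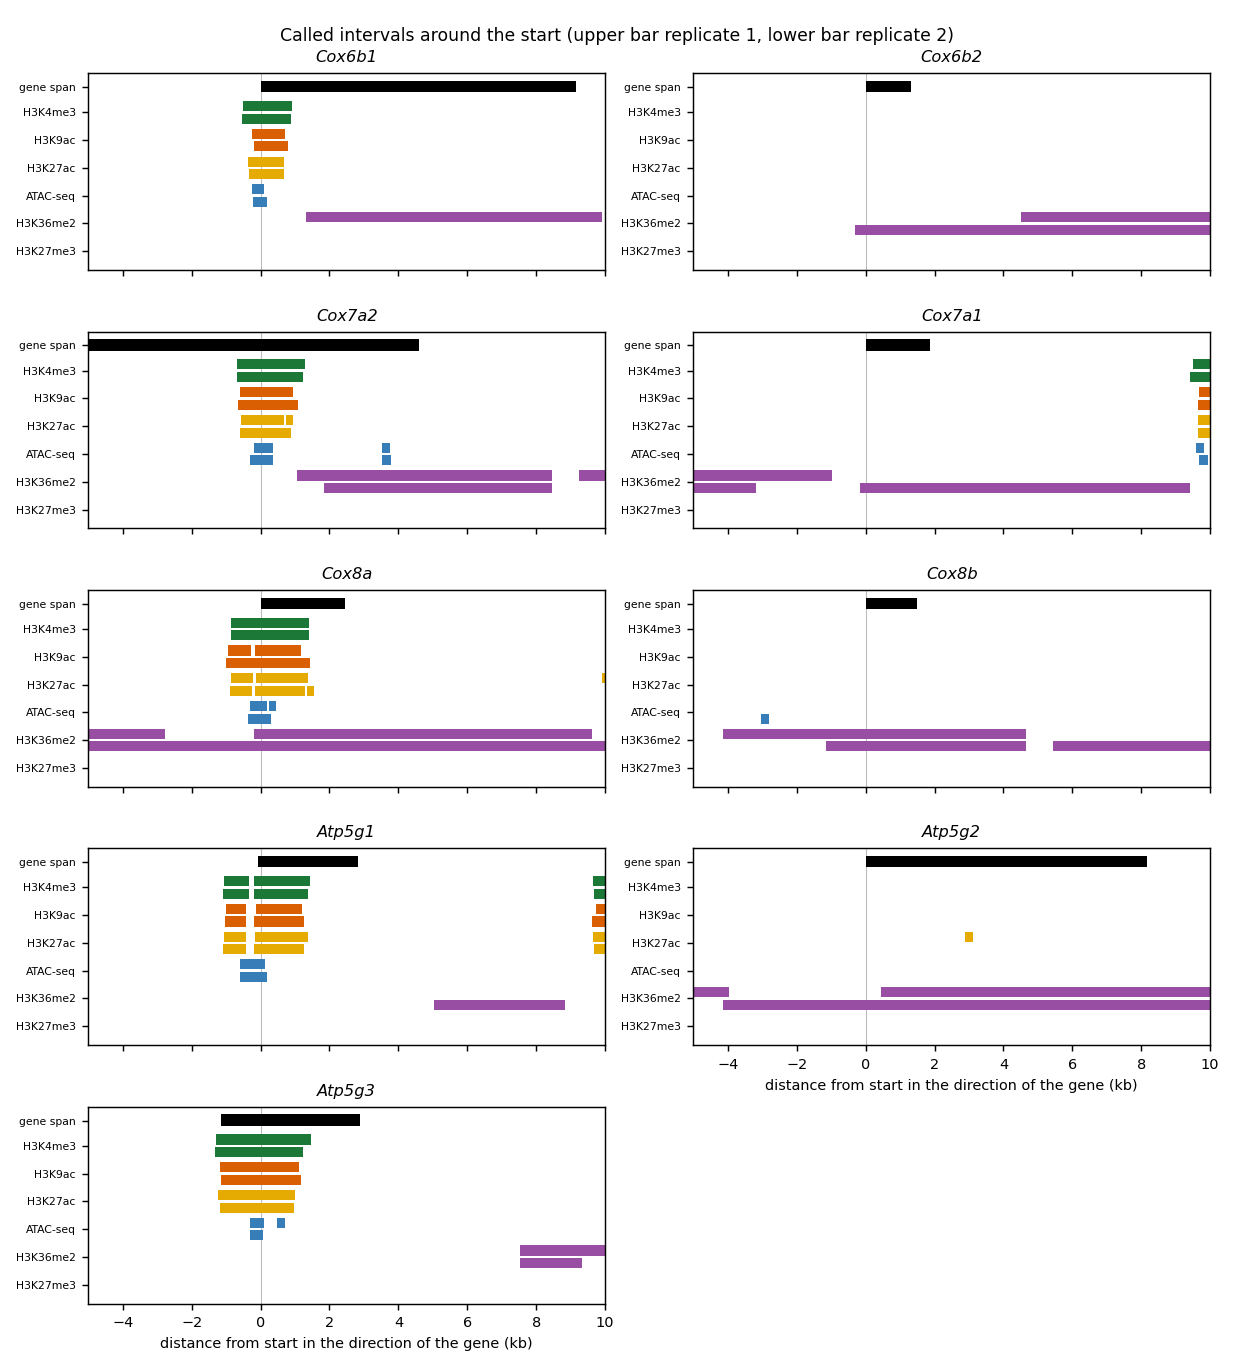
Called intervals from 5 kb before to 10 kb after the start (x axis, kb in the direction of the gene) for the 3 isoform pairs (widely used form on the left) and for Atp5g1, Atp5g2 and Atp5g3, with a bar per interval, replicate 1 above replicate 2, and the gene span in black. Cox6b2, Cox7a1, Cox8b and Atp5g2 lack H3K4me3 at the start, and the H3K4me3 bars at the right edge of Cox7a1 begin 9499 and 9407 bp after its start.

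Besides the 6 tissue isoforms, 7 genes had no H3K4me3 interval. Ndufb4b and Ndufb4c are short loci of 471 and 485 bp inside the spans of Dock8 and Mroh5, and have the same family name as Ndufb4, which had 1587 and 1601 bp. Ndufb4c had 4485 bp of H3K27me3 in each replicate, which is its whole window. Without these loci and the isoforms, 78 of 83 genes, or 94.0%, had H3K4me3 in both replicates.

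The remaining 5 genes encode subunits that are used in all tissues, Ndufa6, Ndufb5 and Ndufs7 of complex I and Atp5g2 and Atp5pb of complex V. Ndufa6 had no active set within 2 kb, with the nearest H3K4me3 interval at 2636 and 2638 bp, and had 4861 bp of H3K36me2 in each replicate. Ndufs7 had the nearest H3K4me3 at 3851 and 3854 bp, and 93.6% of its span was in H3K36me2 in each replicate, beginning 152 bp after its start in both. In both genes H3K36me2 was called where the marks of active starts were not.

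Atp5g2 had a single small interval of H3K27ac, 225 bp in replicate 1 and none in replicate 2, which began 2878 bp after its start, and H3K36me2 covered 94.5% and 100% of its span. Atp5pb, subunit b of the stalk of ATP synthase, had a single interval of H3K9ac, of 206 bp in replicate 2. H3K36me2 covered 69.4% and 50.1% of its span. Neither gene thus had a call of an active mark that held in both replicates.

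Ndufb5 had no interval of any of the 12 lists in its window. Its nearest H3K4me3 intervals were 27265 and 27260 bp away, and the nearest H3K36me2 intervals were 5049641 and 4955641 bp away, the only gene of the 93 with more than 1 Mb to H3K36me2 in both replicates. It lies in a stretch of chromosome 3 of 15.7 Mb without H3K36me2 in each replicate, and of 7.2 and 9.3 Mb without H3K27me3. The lists analysed here may not hold every called interval, and this was not tested. Mrpl47, which encodes a mitochondrial ribosomal protein and whose start lies 308 bp from that of Ndufb5 in the other direction, shares this window.

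Reads that fit several places in the genome were discarded in the alignment. The RefSeq table lists 19 pseudogenes with symbols of these families, and their part in the missing intervals was not tested. Genes without H3K4me3 were also found among other genes of the pathway. Of 36 genes for electron carriers and assembly, 32 had H3K4me3 and 30 had all 4 active sets in both replicates, and those without H3K4me3 were Cycs (cytochrome c), Cyct (its testis form), Sco2 (copper delivery to complex IV) and Cox14.

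Of 14 regulators of mitochondrial genes, 13 had H3K4me3 and 11 had all 4 active sets in both replicates. Ppargc1a, a coactivator of mitochondrial biogenesis, had none of the 4 in either replicate and had H3K36me2 in both. Of 3 uncoupling protein genes, only Ucp2 had H3K4me3.

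ATAC-seq was missing in both replicates at 3 genes with all 3 histone marks of active starts, Ndufaf1, Atp5l and Cox6a2. Ndufaf1 had 1720 and 1673 bp of H3K4me3, with the nearest ATAC-seq intervals at 12059 and 12012 bp. Atp5l, subunit g of ATP synthase, had 2359 and 2223 bp of H3K4me3, with the nearest ATAC-seq intervals at 31002 and 30906 bp.

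In 6 more genes with the 3 marks, ATAC-seq was called in 1 replicate. Replicate 1 alone held it at Ndufa9 (522 bp), Uqcr11 (397 bp) and Uqcrfs1 (240 bp), and replicate 2 alone at Cox6c (428 bp), Ndufc2 (376 bp) and Ndufb8 (217 bp). Each replicate thus missed 3 genes that the other had.

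H3K27me3 touched 6 genes in at least 1 replicate. Besides Cox7b2, Cox8c and Ndufb4c, these were Ndufa10 with 1025 and 25 bp, Ndufa8 with 1338 and 1138 bp and Ndufb7 with 442 bp in replicate 2 only. In the last 3 all of it lay in the flank, with none in the gene span in either replicate. These 3 genes had all 4 active sets in both replicates. H3K27me3 reached the start in neither replicate at any of the 75 genes with a listed start.

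Except in the count of opposite starts below, the first listed start of each gene was used. The set of promoter sequences used here holds a start for 75 of the 93 genes. The other 18 include Atp5a1, Atp5mpl, Cox4i1, Cox4i2, Cox6a2, Cox6c, Cox8c, Ndufa2, Ndufa4l2, Ndufaf6, Ndufb4c, Ndufb9, Ndufs1, Sdhc, Uqcrb, Uqcrc2 and Uqcrq. Within the 300 bases at the start, H3K4me3 was called in both replicates at 64 of the 75 genes (85.3%) against 44.5% of 16456 genes with a start. H3K9ac and H3K27ac were each at 64 as well, against 43.6% for H3K9ac and 43.6% for H3K27ac over all genes. ATAC-seq was at 55 (73.3%) against 38.5%.

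The broad marks were rare at the starts themselves. H3K36me2 was at 4 starts in both replicates (5.33%), those of Cox8a, Cox8b, Ndufaf8 and Ndufv2, against 7.24% of all genes. H3K27me3 was at none against 6.04% of all genes.

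The called intervals at these starts had about the width found over all genes. H3K4me3 intervals were 1911 bp wide at the median of 64 genes (quartiles 1634 and 2268 bp), against 1968 bp over 7318 genes. They reached 774 bp before and 1138 bp after the start at the median. ATAC-seq intervals were 590 bp wide at the median of 55 genes against 637 bp over 6338 genes.

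The widest H3K4me3 intervals, as means of the replicates, were those of Ndufaf3 with 4818 bp, Uqcrh with 3619 bp and Ndufa13 with 3429 bp. The narrowest were those of Ndufc2 with 1148 bp, Ndufc1 with 1158 bp and Atp5e with 1312 bp. The windows of the 3 widest overlap other genes, such as Impdh2 and Dalrd3 at Ndufaf3 and Lrrc41 at Uqcrh, whereas of the 3 narrowest only that of Atp5e overlaps another gene, Prelid3b. In all, the windows of 61 of the 93 genes held part of another protein-coding gene. The share over all genes was not computed, so this count does not set these genes apart.

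Starts that face another start were frequent. For this count all listed starts of each gene were used, not the first only. In 22 of the 75 genes (29.3%) a start lay within 1000 bp of a start of another gene in the opposite direction. The share was 8.77% of all genes with a start. Examples are Ndufa7 and Rps28 at 10 bp, Ndufs3 and Kbtbd4 at 19 bp, Sdhd and Timm8b at 52 bp and Atp5j and Gabpa at 148 bp. Gabpa encodes a transcription factor known for binding the promoters of genes of oxidative phosphorylation. In such pairs the intervals over both starts cannot be assigned to either gene.

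H3K36me2 was low at the start and higher downstream. At the start itself it covered 4.0% of the 75 genes in both replicates, against 6.59% of all genes with a start. At 2 kb after the start it covered 40.0% against 18.8%, and at 5 kb it covered 42.7% against 24.7%. The highest value along the profile was 48.0%, at 7600 bp. Many of these genes end before that distance, so the values were also taken only over genes that still ran there. At 2 kb, H3K36me2 covered 27 of 66 such genes (40.9%) against 20.6% over all, and at 5 kb 21 of 50 (42.0%) against 27.6%.

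H3K4me3 fell over the same distance, from 85.3% of the genes at the start to 62.7% at 1 kb and 0.0% at 2 kb, against 44.0%, 29.3% and 5.90% of all genes. In the 51 genes with a start and with H3K36me2 in the window in both replicates, the first covered base at or after the start was sought. That base may lie beyond the gene, as at Ndufs5, a gene of 5477 bp, where it lay at 65387 bp in replicate 1. As the mean of the replicates, the distance was 1292 bp at the median, against 2229 bp over 8035 genes. This distance grows with gene length, and within length classes it was not shorter than over all genes. It was 760 bp in 12 genes up to 5 kb against 439 bp, 1409 bp in 30 genes of 5 to 20 kb against 1327 bp, and 3866 bp in 9 longer genes against 3572 bp. The starts of 3 of these 51 genes (5.88%) lay inside H3K36me2 in both replicates, against 13.5%.

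Over whole spans, H3K36me2 covered 50.0% at the median of the 93 genes, as the mean of the replicates, against 4.12% over all genes. The same value was 55.9% over the mitochondrial and 36.7% over the cytosolic ribosomal protein genes. In replicates 1 and 2 alone, the medians were 49.3% and 54.6% for the 93 genes and 0.0% and 0.0% over all genes. They were 63.4% and 66.9% for the mitochondrial and 0.0% and 0.0% for the cytosolic ribosomal protein genes. Length classes were read with the mean of the replicates. Their medians were 50.0% against 0.0% over all genes up to 5 kb, 51.6% against 16.7% from 5 to 20 kb and 52.9% against 15.8% above 20 kb. It covered the whole span in both replicates at Cox6a2, Cox8a, Cox8b and Ndufaf8, genes of 932 to 2459 bp, and none of the span in either replicate at 20 genes.

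**Figure D4:**
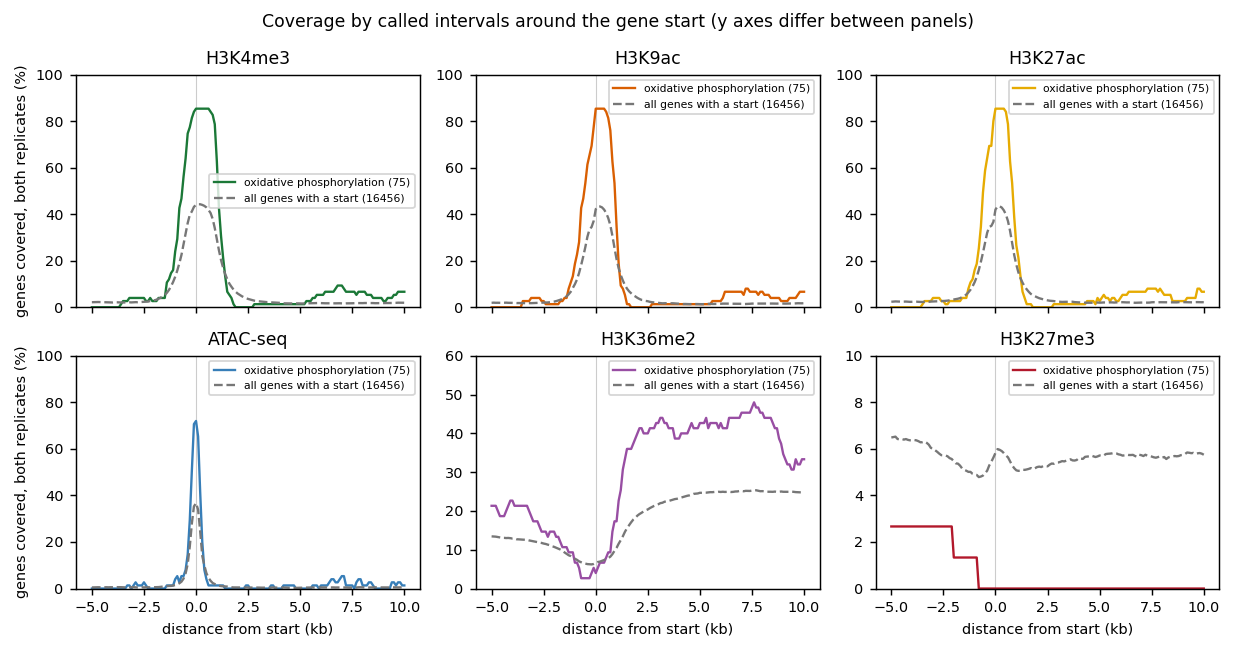
Percent of genes covered by an interval in both replicates (y axis, with a different range in the panels of the broad marks) at each distance from the start (x axis, kb), for the 75 oxidative phosphorylation genes with a start (solid line) and all 16456 genes with a start (dashed line). H3K4me3, H3K9ac and H3K27ac peak at 85.3% at the start, and H3K36me2 rises from 4.0% at the start to 40.0% at 2 kb.

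The 300 bases at the starts held 20 CpG at the median of the 75 genes, against 14 over all genes with a start, with a range of 2 (Cox8b) to 43 (Atp5j). At the 64 starts with H3K4me3 the median was also 20, and at the 11 without it in both replicates it was 12. The 4 tissue isoforms with a start, Cox6b2, Cox7a1, Cox7b2 and Cox8b, had 2 to 10 CpG. Over all genes, the median was 22 with H3K4me3 at the start and 5 without.

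Starts without H3K4me3 were thus of different kinds among the 75. Ndufa6, Ndufs7, Atp5pb and Atp5g2 had 27, 24, 23 and 20 CpG, and Ndufb5 had 17. Ndufs8 had 12 and Ndufb4b had 5. Of the 39 genes with at least 20 CpG at the start, 4 had no H3K4me3 there in either replicate (10.3%), against 26.3% of 6149 such genes over all. The limit of 20 CpG is the median of the oxidative phosphorylation genes and was chosen after the values were seen.

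**Figure D5:**
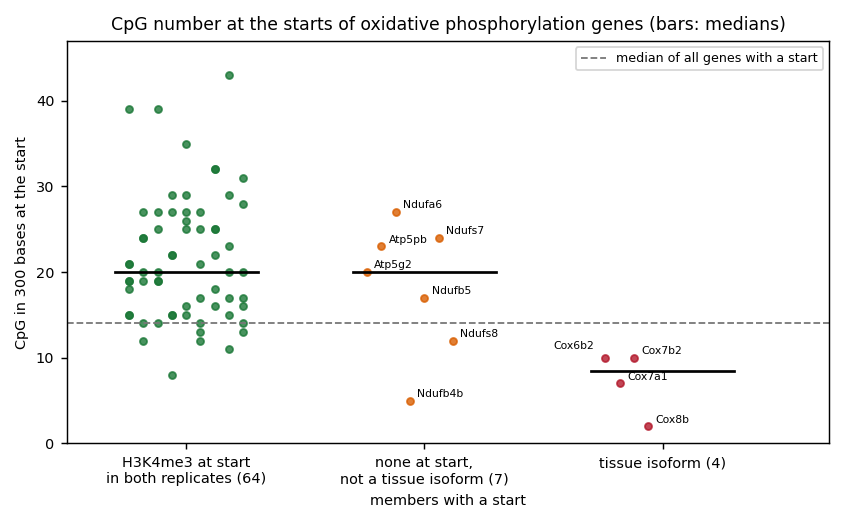
Number of CpG in the 300 bases at the start (y axis) for the 75 oxidative phosphorylation genes with a start, split into those with H3K4me3 there in both replicates, those without that are no tissue isoform, and the tissue isoforms (x axis), with bars for the medians and a dashed line at 14, the median of all genes with a start. The 4 tissue isoforms lie at 2 to 10 CpG, and 5 of the 7 genes without H3K4me3 in the middle lie at 17 to 27 CpG.

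Short sequences that transcription factors are known to bind were counted in the same 300 bases, on both strands, and none of the 7 contains another. The core of NRF1, GCGCATGC, was in 12 of the 75 sequences (16.0%) against 3.65% of all. The core of GABP and other ETS factors, CCGGAAG, was in 18 (24.0%) against 12.2%. The core of YY1, AAGATGG, was in 11 (14.7%) against 6.42%, and the site of the estrogen-related receptors, AAGGTCA, was in 8 (10.7%) against 4.02%.

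The Sp and KLF box, GGGCGG, was in 34 (45.3%) against 47.3% of all, the CCAAT box was in 32 (42.7%) against 38.9%, and TATAAA was in 8 (10.7%) against 13.5%. Most of the 75 starts had H3K4me3, and starts with H3K4me3 differ from others in sequence over all genes. The 64 starts with H3K4me3 were therefore also set beside the 7318 such starts over all genes. The NRF1 core was in 15.6% against 6.35%, the ETS core in 26.6% against 22.8%, the YY1 core in 14.1% against 8.06% and AAGGTCA in 12.5% against 2.66%. On this footing the share of the ETS core was close to that of all genes, and the Sp and KLF box was less frequent, in 45.3% against 69.2%. The CCAAT box was in 42.2% against 39.8%, and TATAAA in 7.81% against 5.97%. These differences were not tested.

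Among the sequences printed above, the NRF1 core was in that of Atp5g2, the ETS core in those of Cox6b1 and Cox8a, the site AAGGTCA in that of Atp5g3 and TATAAA in that of Cox8b. Such a match of letters says nothing of binding in EL4. The 4 tissue isoforms with a start held none of the NRF1, ETS, YY1 and AAGGTCA sequences. Over all starts without H3K4me3 in both replicates, these were in 1.49%, 3.75%, 5.1% and 5.11%. Their absence from 4 genes thus says little.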

How the data were processed

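The 12 ChIP-seq and ATAC-seq libraries of EL4 cells each have a table of intervals that the authors deposited, with chromosome, start and end as positions in bp and without score, count or p-value. Per the labels and the methods, the authors aligned reads to GRCm38 with STAR 2.5, kept unique alignments, discarded reads of the sex chromosomes and reduced duplicates with Picard. The lists nevertheless hold intervals on chromosome X. Narrow intervals were called with MACS2 and broad ones with Epic. The ChIP-seq calls used the input as control, and the methods name no control for ATAC-seq. Depth is unknown, so no interval or limit from counts was computed.

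Gene spans were those of RefSeq for GRCm38.p6, starts and sequences the first entry per gene. Opposite starts were sought among all entries. Overlaps of at least 1 bp with spans plus 2 kb were counted in Python 3.11.15 with numpy 2.4.6 and pandas 2.3.3, and checked on simulated intervals against bedtools 2.31.1. Figures were drawn with matplotlib 3.10.9. The genes, lists and motifs were chosen with earlier results of these data known. Genes named in the text are the tissue isoforms and their partners, genes that lack H3K4me3, H3K9ac, H3K27ac or ATAC-seq in at least 1 replicate, genes with H3K27me3, the core subunits, and those with the most or least H3K4me3 and H3K36me2. Other names were chosen after their values were seen. Alternatives were no flank, 5 kb, at least 200 bp covered, intervals of at least 500 bp, either replicate, each replicate left out and, added after the data were seen, the 300 bases at the start. A gene is counted but its own values are not reported here. No test was run.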

Additional observations from a re-analysis of the deposited data

Results flagged for a closer look

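The families also have members on chromosome X, which none of the counts above use. All 3 of them, Ndufb11, Ndufa1 and Cox7b, had H3K4me3, H3K9ac and H3K27ac in both replicates, although the methods say that reads of the sex chromosomes were discarded. Ndufb11, a subunit of complex I, had 3007 and 3053 bp of H3K4me3. Ndufa1, also of complex I, had 1999 and 2020 bp, and Cox7b, of complex IV, had 1465 and 1450 bp. ATAC-seq was also called in both replicates at each, and neither H3K36me2 nor H3K27me3 was. The ChIP-seq intervals were called with the input as control, but the input library itself was not examined at these genes.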

How the results depend on the processing

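Values below follow the order H3K4me3, H3K9ac, H3K27ac, ATAC-seq, H3K36me2 and H3K27me3, as percent of the genes touched in both replicates. With no flank they were 84.9%, 84.9%, 84.9%, 74.2%, 62.4% and 2.15%. With 5 kb they were 88.2%, 88.2%, 88.2%, 78.5% and 76.3%, and H3K27me3 stayed at 5.38%. With at least 200 bp covered, H3K36me2 was at 67.7% and H3K27me3 at 3.23%. With intervals of at least 500 bp, ATAC-seq was at 44.1% and the number of genes with all 4 active sets was 41, since ATAC-seq intervals are 418 and 428 bp long at the median. Touched in either replicate, H3K9ac was at 87.1%, H3K27ac at 87.1%, ATAC-seq at 82.8%, H3K36me2 at 79.6% and H3K27me3 at 6.45%. With each replicate left out in turn, the shares ranged from 86.0% to 86.0% for H3K4me3, 86.0% to 87.1% for H3K9ac and for H3K27ac, 79.6% to 79.6% for ATAC-seq, 74.2% to 74.2% for H3K36me2 and 5.38% to 6.45% for H3K27me3. In the 300 bases at the start, H3K4me3 was at 85.3%, ATAC-seq at 73.3%, H3K36me2 at 5.33% and H3K27me3 at 0%. The number of tissue isoforms without an active set was 6 under each other alternative over the gene window except 5 kb, where it was 5, and 4 of 4 at the start. No paired analysis was possible because no test or model was fitted. The lists give no depth, so a missing interval cannot be told apart from a signal under the callers' thresholds.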
